A study of Mus musculus with 30 samples.

Results

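The genes described here carry out or steer glucose uptake, glycolysis, lactate export, the oxidation of pyruvate and the pentose phosphate pathway. They were chosen by symbol, as 32 of the 32361 Ensembl mouse gene IDs of the deposited count table, and read over all 30 libraries. The study measured RNA in macrophages grown from mouse bone marrow and asked, from its title, how Toll-like receptor signalling runs without Ticam2. Marrow came from C57BL/6J mice that were either wild type (WT) or Ticam2-/- (called KO below), red cells were lysed, and the cells were grown in L929 supernatant, which supplies M-CSF. Cells of both genotypes were left untreated or were given either lipopolysaccharide (LPS), at a dose of 10 ng/mL, or lipoteichoic acid (LTA), at a dose of 100 ng/mL, over 2 h or 6 h, which makes 10 groups. Each group held 3 libraries, each from the cells of 1 of 3 animals of that genotype, so the p-values measure the spread between the cells of these animals. The labels do not say what was removed from Ticam2, how old the animals were or whether an animal kept its number across treatments.

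As background, glucose enters macrophages through GLUT family carriers, is trapped by hexokinases, and is committed to glycolysis by phosphofructokinase, which the PFKFB enzymes tune through fructose-2,6-bisphosphate. Pyruvate is then reduced to lactate by LDHA and exported by monocarboxylate transporters, or is oxidised by pyruvate dehydrogenase, which PDK kinases inhibit, while the pentose phosphate enzymes turn glucose 6-phosphate into NADPH and ribose. Macrophages given LPS are known for raising glycolysis, with HIF-1 alpha as a well studied driver. Ticam2 encodes TRAM, an adaptor that links the LPS receptor TLR4 to TRIF, and LTA is widely used as a ligand of TLR2.

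Depth was 10641070 to 13521660 counts per library in untreated and 6 h cells, whereas the 2 h libraries held 1334784 to 2658329, a median ratio of 6.93. The 2 h libraries also differed in makeup. Summed markers of red cells and megakaryocytes took 5912 to 8039 CPM (counts scaled to a common total) in untreated and 6 h cells but 211 to 540 CPM at 2 h, where Hbb-bs, Hbb-bt and Alas2 were at 0. Summed fibroblast markers took 4.29 to 7.70 CPM in untreated and 6 h cells and 190 to 346 CPM at 2 h. Their genes did not all follow the sum. At the lower depth of 2 h Lum was at 0 in every group and Pdgfra in both WT groups, while both had counts in every untreated and 6 h group. Every comparison of 2 h with untreated cells therefore also compares these library sets, and treatment and library set cannot be told apart in it. The labels' account of harvest names 6 h, although 12 libraries are labelled 2 h. Macrophage markers were detected in every group (10 of 10 genes, over the libraries of the group together). Their sum was 29930 to 31444 CPM in untreated WT cells, 19942 to 21423 in WT cells after 6 h of LPS, 24437 to 24646 after 6 h of LTA and 26563 to 28447 in the untreated and 6 h KO libraries. Ticam2 had 120.5 to 259.5 counts in the untreated and 6 h WT libraries and 5 to 26 in those of KO cells. Its KO minus WT log2 difference was -4.01 in untreated cells. At 2 h, where depth is lower, counts were 15 to 28 in WT and 1 to 14 in KO libraries, so the genotypes lay closer there. The 2 h KO library with 14 counts held a larger share of Ticam2 than any untreated or 6 h KO library, and the cause was not tested. In bulk RNA, fewer cells of a type and less RNA per cell cannot be told apart.

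The scaling of the libraries decides several directions at 6 h, so counts of genes are given under TMM, which centres the typical gene at no change, and under total counts, which keeps each gene's share of the library, and single genes under both where the scaling matters. In WT cells log2 changes shifted from TMM to total counts by -0.70 after LPS and by -0.60 after LTA, as the median over all genes of each gene's shift. The matching shifts in KO cells were -0.19 and -0.18, and those of the KO minus WT difference were 0.52 after LPS and 0.44 after LTA. The 32 genes, with Aldoa read from 1 of its 2 IDs, together took 0.588% of the counts in untreated WT cells. Their share was 0.632% after 6 h of LPS and 0.730% after 6 h of LTA. In KO cells the same shares were 0.598%, 0.724% and 0.751%. In the text a level is in TMM-scaled CPM for the libraries of animals 1, 2 and 3 unless total counts are named, a difference is a log2 value with its standard error (SE), and a gene is said to have risen or fallen when edgeR's quasi-likelihood test gave a Benjamini-Hochberg adjusted p under 0.05 over 15119 tested genes. Levels are not compared between genes, because the transcript coverage of the libraries is not stated. Of the 32 genes 31 were tested, and 28 of these had at least 10 counts in every library. The exceptions were Slc2a3, Pfkm and Pfkfb4, which reached that in 29, 24 and 25 of the 30 libraries. Pdk4, a kinase that inhibits pyruvate dehydrogenase, was not tested, with 0 to 3 counts per library, where a count of 0 allows up to 3 counts.

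Promoter sequences of 6 genes are shown, taken from a glucose carrier, a hexokinase, the PFKFB pair and the lactate step, because HIF-1, whose Hif1a RNA is among the genes described, is known to bind the core motifs ACGTG and GCGTG. Each sequence is the 250 bases before a RefSeq start in build GRCm38.p6, read 5′ to 3′ on the gene's strand. Capitals mark either core on either strand, so that CACGT and CACGC are the reverse forms, and adjoining matches run together. The genes are Pfkfb3 at chr2:11553930-11554179 on the minus strand, Hk2 at chr6:82774455-82774704 on the minus strand, Slc2a1 at chr4:119108495-119108744, Slc16a3 at chr11:120948817-120949066, Ldha at chr7:46845554-46845803 and Pfkfb4 at chr9:108991652-108991901, the last 4 on the plus strand.
Pfkfb3: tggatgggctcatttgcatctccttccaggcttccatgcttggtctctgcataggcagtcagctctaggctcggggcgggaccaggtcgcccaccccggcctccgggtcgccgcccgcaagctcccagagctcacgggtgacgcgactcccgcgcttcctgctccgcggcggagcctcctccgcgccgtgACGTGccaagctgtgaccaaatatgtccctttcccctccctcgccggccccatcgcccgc
Hk2: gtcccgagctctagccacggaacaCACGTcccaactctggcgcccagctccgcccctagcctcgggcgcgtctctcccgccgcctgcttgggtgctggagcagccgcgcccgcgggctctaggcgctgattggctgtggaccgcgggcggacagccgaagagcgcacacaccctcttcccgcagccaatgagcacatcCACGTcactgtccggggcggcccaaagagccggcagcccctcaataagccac
Slc2a1: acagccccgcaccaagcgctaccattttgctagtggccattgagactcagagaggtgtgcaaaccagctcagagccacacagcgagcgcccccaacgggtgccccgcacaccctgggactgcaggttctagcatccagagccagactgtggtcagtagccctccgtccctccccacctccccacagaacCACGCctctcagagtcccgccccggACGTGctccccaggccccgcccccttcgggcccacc
Slc16a3: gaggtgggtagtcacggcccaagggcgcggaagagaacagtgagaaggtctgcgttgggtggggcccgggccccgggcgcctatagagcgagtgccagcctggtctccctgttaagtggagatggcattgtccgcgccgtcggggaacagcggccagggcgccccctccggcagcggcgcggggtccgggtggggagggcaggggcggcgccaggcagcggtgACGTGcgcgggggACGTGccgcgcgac
Ldha: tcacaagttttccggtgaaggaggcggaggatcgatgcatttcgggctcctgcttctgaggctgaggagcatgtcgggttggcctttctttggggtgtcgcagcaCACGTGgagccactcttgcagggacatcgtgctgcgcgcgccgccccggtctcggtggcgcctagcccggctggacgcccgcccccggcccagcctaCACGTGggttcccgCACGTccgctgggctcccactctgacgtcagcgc
Pfkfb4: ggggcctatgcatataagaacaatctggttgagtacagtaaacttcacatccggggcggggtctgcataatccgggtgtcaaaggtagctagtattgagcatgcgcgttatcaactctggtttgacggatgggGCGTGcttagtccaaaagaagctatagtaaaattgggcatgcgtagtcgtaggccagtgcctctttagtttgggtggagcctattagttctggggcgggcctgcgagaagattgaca
All 6 hold a core, including Pfkfb4, which fell after LPS and LTA while Pfkfb3 rose. These 6 genes were picked and not drawn at random, so their number with a core says nothing of the other genes. Pfkfb3 and Ldha each have another RefSeq start, which is not shown, and the sequence around it also holds a core. RefSeq windows of 300 bases, from 250 before to 50 after the start, were found for 31 of the 32 genes (45 windows), and Slc2a3 had none. A core of either kind was present in 37 of these 45 windows (82.2%) and in 43.8% of all 32851 windows, ACGTG alone in 46.7% against 19.6% and GCGTG alone in 60% against 32.4%. The median GC content was 61% in the members' windows and 52.7% in all windows, and both cores are rich in G and C. The E-box CACGTG, which overlaps ACGTG, was in 11.1% against 7.15%, and the kappa B consensus was in 0% against 4.5%. These are matches of letters and do not show binding.

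In WT cells 6 h of LPS raised most of the pathway relative to the typical gene, with the strongest rises in Pfkfb3, Slc2a6, Hk2, Slc2a1 and Hif1a. Of the 31 tested genes 23 rose and 3 fell under TMM (all genes 36.6% and 36.1%). Under total counts 10 rose and 17 fell (all genes 16.2% and 63.7%). After LTA 23 rose and 3 fell under TMM (all genes 35.4% and 35.9%), and 15 and 14 under total counts (all genes 15.7% and 62.3%). The median change of the members after LPS was 0.56 under TMM and -0.14 under total counts, and after LTA it was 0.64 and 0.04. The comparisons with untreated cells of a genotype share the same 3 untreated libraries.

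**Figure D1:**
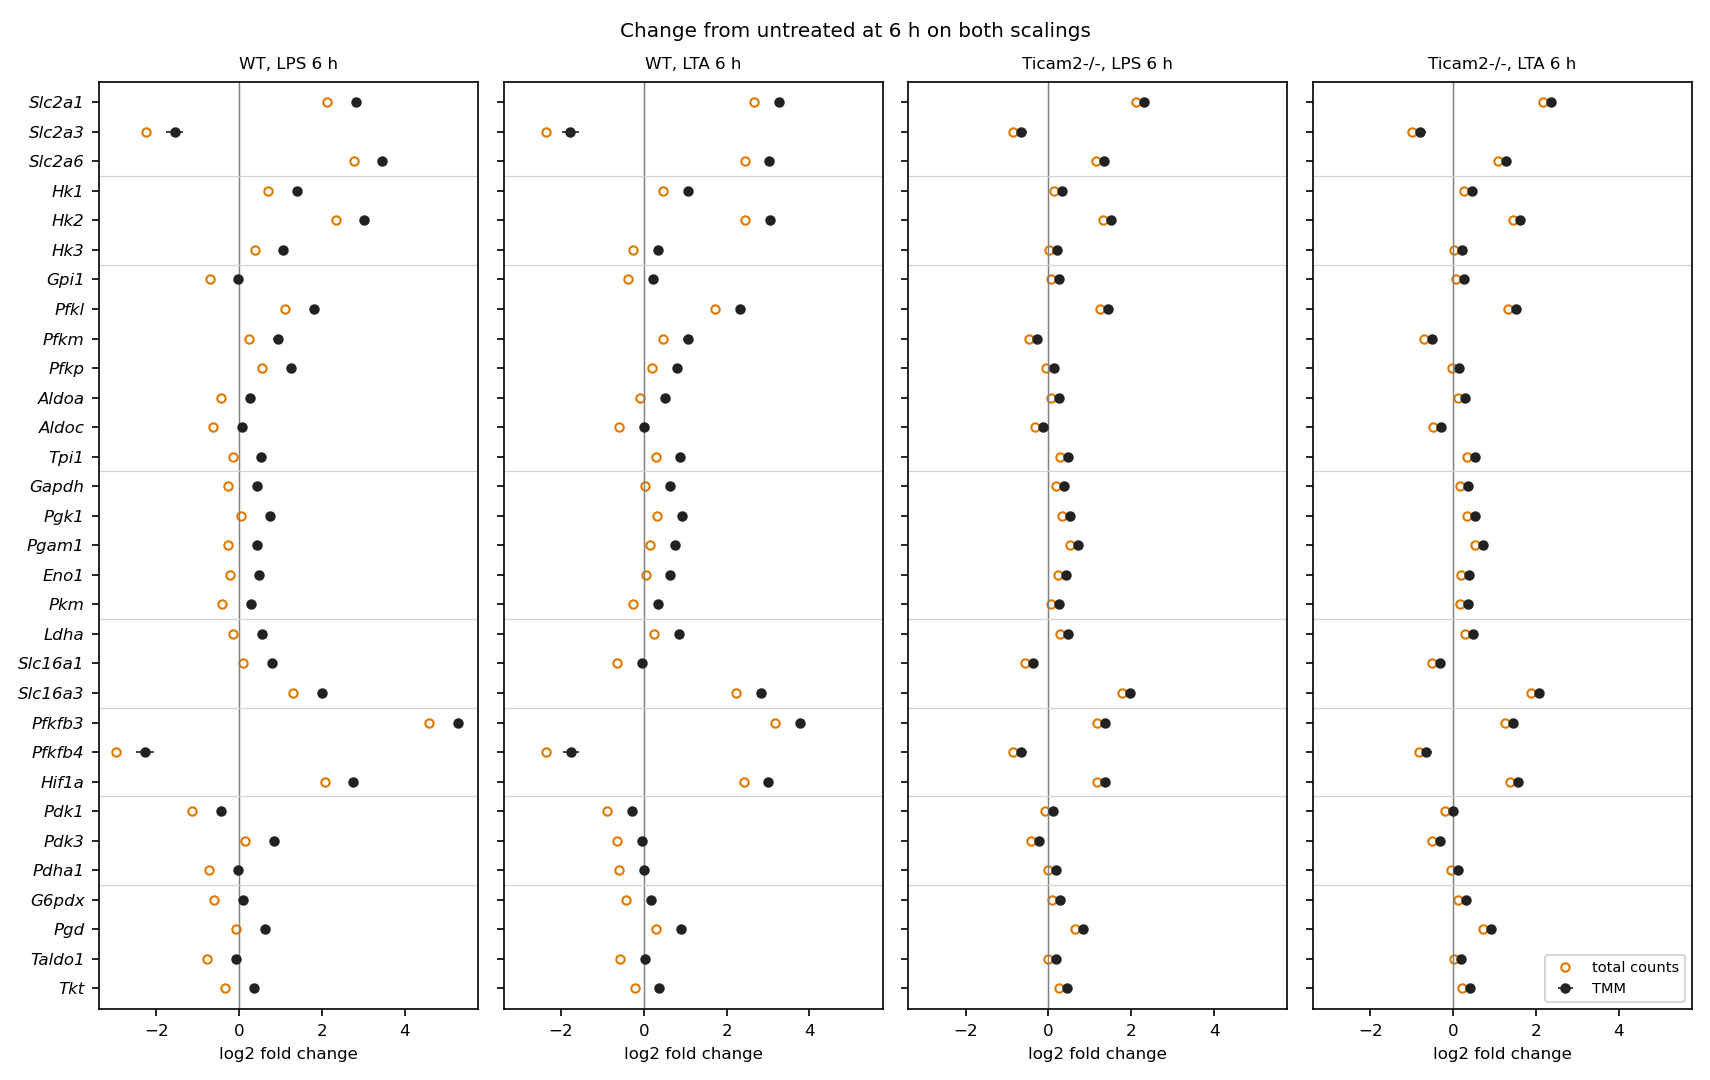
Log2 fold change of the 31 tested genes after 6 h of LPS or LTA against untreated cells of the same genotype, 1 panel per response; black points are TMM values with their SE and orange open points are total-count values. Pfkfb3 lies farthest right in WT cells, at 5.28 with LPS and 3.76 with LTA, while Aldoa, Tpi1, Gapdh, Pgam1, Eno1, Pkm and Ldha, among others, cross 0 between the scalings in WT cells given LPS.

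Among the carriers of glucose, Slc2a1 and Slc2a6 rose and Slc2a3 fell. Slc2a1 encodes GLUT1, the main glucose carrier of activated macrophages. Its level was 64.8, 59.8 and 67.1 in untreated WT cells, 421, 469 and 460 after LPS and 600, 634 and 613 after LTA. The 3 groups did not overlap, and the change was 2.82 ± 0.05 after LPS (adjusted p = 1.0e-46; total counts 2.12) and 3.27 ± 0.05 after LTA (adjusted p = 1.1e-49; total counts 2.67). Slc2a6, which encodes GLUT6, stood at 81.3, 77.7 and 81.3 in untreated cells, at 840, 879 and 921 after LPS and at 656, 663 and 650 after LTA. Here the LPS libraries were the highest, with changes of 3.46 ± 0.05 and 3.03 ± 0.05 (total counts 2.76 and 2.44). Slc2a3, which encodes the high-affinity carrier GLUT3, was low throughout, with 8.21, 7.74 and 8.06 untreated, 3.17, 2.34 and 2.59 after LPS and 3.11, 2.38 and 1.52 after LTA. Both treated groups lay below the untreated one, with a change of -1.56 ± 0.19 after LPS (adjusted p = 3.6e-10) and -1.77 ± 0.20 after LTA (adjusted p = 1.4e-11), and of -2.26 and -2.37 under total counts.

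All 3 hexokinases, which phosphorylate glucose on entry, rose after LPS on both scalings. Hk2, the inducible form, was at 43.5, 49.3 and 48.1 in untreated WT cells, 377, 395 and 373 after LPS and 381, 395 and 387 after LTA. Its treated groups overlapped each other and lay far above the untreated one, with changes of 3.02 ± 0.05 (adjusted p = 2.7e-47; total counts 2.33) and 3.05 ± 0.05 (adjusted p = 2.0e-47; total counts 2.45). Hk1, the form found in most tissues, was at 43.4, 45.4 and 44.6 untreated, 115, 118 and 120 after LPS and 91.3, 95.95 and 90.8 after LTA, and rose by 1.40 and 1.06 (total counts 0.70 and 0.46). Hk3, a form typical of myeloid cells, was at 67.2, 71.4 and 68.3 untreated, 141, 147 and 145 after LPS and 85.9, 88.7 and 85.7 after LTA. Its change after LPS was 1.06 ± 0.05 (total counts 0.37), whereas after LTA it was 0.33 ± 0.05 under TMM and -0.27 under total counts, both called and opposite in direction.

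Among the RNAs of the step that commits sugar to glycolysis, that of Pfkfb3 rose most in WT cells with both ligands. Pfkfb3 makes fructose-2,6-bisphosphate, which activates phosphofructokinase. Its level was 6.85, 9.04 and 8.89 in untreated WT cells, 317, 340 and 303 after LPS and 109, 122 and 104 after LTA. The 3 groups were far apart, with a change of 5.28 ± 0.08 after LPS (adjusted p = 2.9e-50; total counts 4.58) and 3.76 ± 0.08 after LTA (adjusted p = 2.6e-41; total counts 3.16). Pfkfb4, of the same enzyme family, moved the opposite way, with 6.78, 7.89 and 7.73 untreated, 1.71, 1.52 and 1.35 after LPS and 2.44, 2.06 and 2.06 after LTA. Both treated groups lay below the untreated one, with changes of -2.28 ± 0.21 (adjusted p = 1.6e-14; total counts -2.97) and -1.76 ± 0.19 (adjusted p = 2.4e-12; total counts -2.36).

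Of the phosphofructokinase subunits, Pfkl, the liver form, was at 29.9, 27.2 and 27.5 in untreated WT cells, 94.6, 105 and 98.1 after LPS and 145, 140 and 141 after LTA. The 3 groups were separate, with changes of 1.81 ± 0.06 and 2.33 ± 0.06 (total counts 1.12 and 1.73). Pfkp, the platelet form, lay at 34.8 to 37.9 untreated, 81.5 to 92.2 after LPS and 61.8 to 64.6 after LTA, a rise of 1.25 ± 0.06 and 0.80 ± 0.06 (total counts 0.56 and 0.20). Pfkm, the muscle form, rose by 0.94 ± 0.13 and 1.07 ± 0.12, but after LPS its total-count change of 0.24 was not called (adjusted p = 0.080). Pfkm overlaps Senp1 on the opposite strand, which had a mean of 180 counts against 58.2 for Pfkm, and the strand setting of the counting is not stated, so its counts are uncertain. Pfkp overlaps Pitrm1, Tpi1 overlaps Spsb2 and G6pdx overlaps Ikbkg, each with a lower mean count than the member.

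The enzymes that follow moved less, and in WT cells after LPS their direction depended on the scaling. All 5 genes of lower glycolysis (Gapdh, Pgk1, Pgam1, Eno1 and Pkm) rose under TMM after LPS, whereas under total counts 4 fell and Pgk1, at 0.05, was not called. Gapdh, which oxidises glyceraldehyde 3-phosphate, was at 250, 252 and 258 in untreated WT cells and at 316, 345 and 367 after LPS under TMM. Under total counts the same libraries read 283, 286 and 291 CPM untreated and 224, 238 and 255 CPM after LPS. The groups were separate on each scale but in opposite order, with a change of 0.43 ± 0.04 under TMM and -0.26 ± 0.04 under total counts. Ldha, which makes lactate from pyruvate, was at 801, 799 and 790 untreated, 1108, 1189 and 1215 after LPS and 1436, 1434 and 1430 after LTA. It changed by 0.56 ± 0.04 after LPS, which turned to -0.14 under total counts, and by 0.85 ± 0.04 after LTA, which stayed above 0 at 0.25. Pkm, the pyruvate kinase gene, was at 975, 930 and 940 untreated, 1115, 1171 and 1193 after LPS and 1210, 1159 and 1221 after LTA, and both of its TMM changes (0.29 and 0.34) turned to falls under total counts (-0.41 and -0.26).

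After LTA Tpi1, Pgk1, Pgam1 and Ldha rose on both scalings, with changes of 0.88, 0.92, 0.75 and 0.85 under TMM and 0.29, 0.33, 0.15 and 0.25 under total counts. Aldoa, an aldolase gene, changed by 0.25 after LPS and 0.51 after LTA under TMM and by -0.45 and -0.09 under total counts, all called. Gpi1, the isomerase after hexokinase, changed by 0.22 after LTA under TMM and -0.37 under total counts, and Aldoc, a second aldolase gene, was not called under TMM (0.06 and -0.01). Aldoa is carried by 2 IDs in the table whose counts differ by at most 8, and the first stands for the gene. Counts were not whole numbers in at least 83.3% of the libraries for Pgk1, Eno1, Aldoa, Pgam1, Gapdh, Pkm and Ldha. Fractional counts can arise where a read is shared among places or genes, so the levels of these genes are uncertain.

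**Figure D2:**
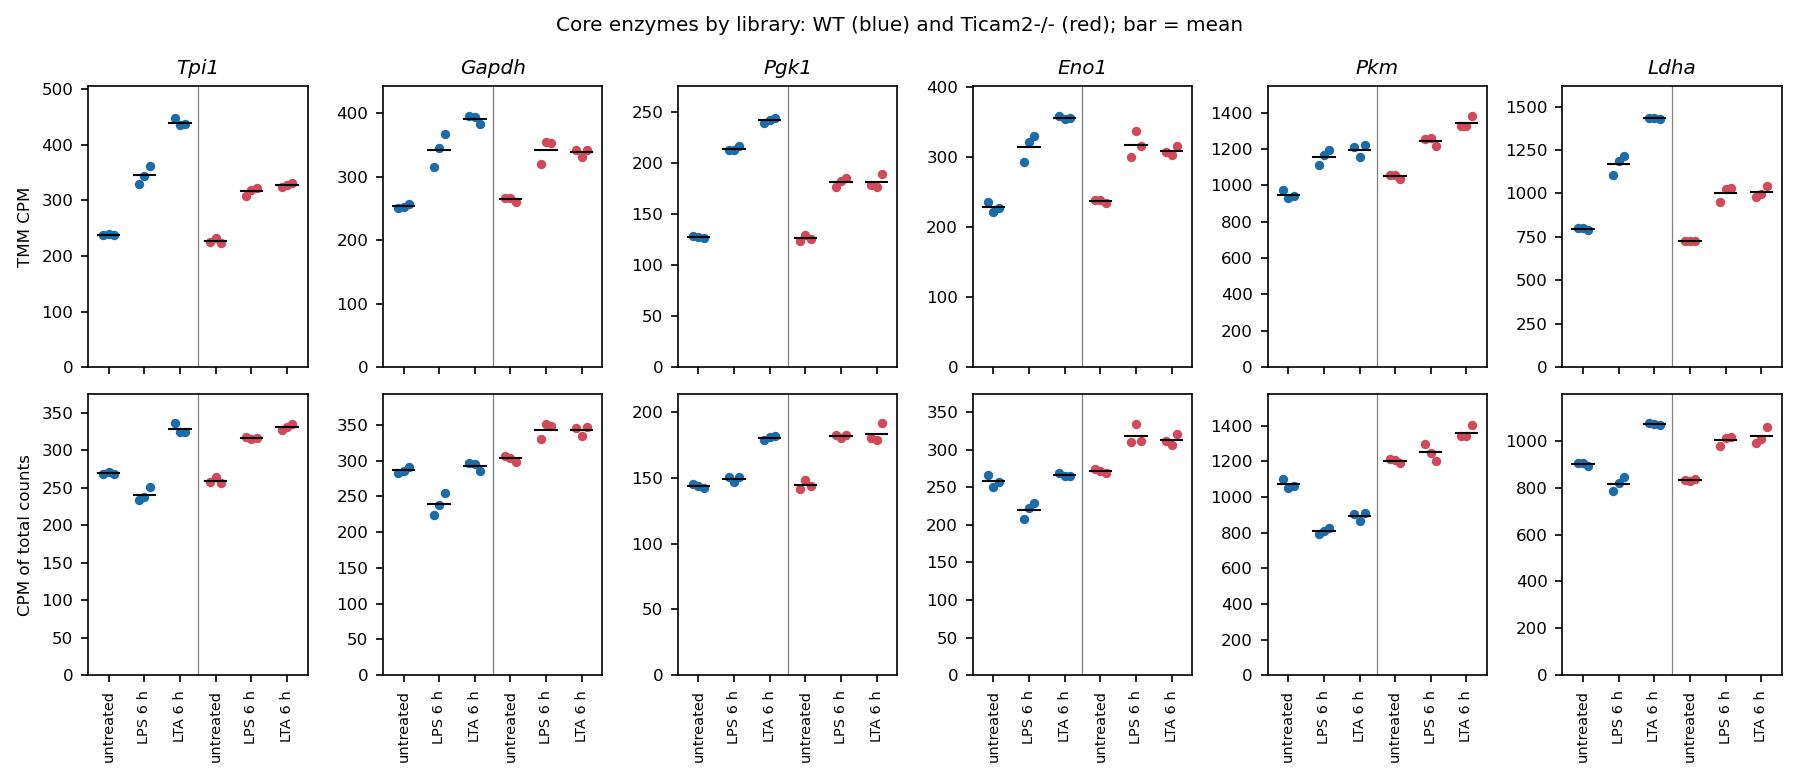
Level of 6 glycolytic enzymes in each untreated and 6 h library, in TMM-scaled CPM (upper row) and CPM of total counts (lower row), with WT in blue, KO in red and the group mean as a bar. In WT cells given LPS the Gapdh libraries lie at 316 to 367 above the untreated 250 to 258 under TMM, and at 224 to 255 below the untreated 283 to 291 under total counts.

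Of the exporters of lactate, Slc16a3, which encodes MCT4, rose on both scalings. It was at 40.6, 39.2 and 38.1 in untreated WT cells, 150, 160 and 164 after LPS and 278, 276 and 283 after LTA. The 3 groups were separate, with LTA the highest, and the changes were 2.01 ± 0.05 (adjusted p = 7.1e-40; total counts 1.31) and 2.82 ± 0.05 (adjusted p = 1.2e-47; total counts 2.23). Slc16a1, which encodes MCT1, was at 25.7, 21.8 and 22.7 untreated, 38.6, 45.0 and 37.5 after LPS and 21.7, 22.2 and 23.9 after LTA. It rose after LPS under TMM (0.78 ± 0.08), but its total-count change of 0.09 was not called (adjusted p = 0.31). After LTA its libraries overlapped the untreated ones (-0.05 ± 0.08), and under total counts it fell (-0.65).

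Hif1a encodes the oxygen-regulated subunit of HIF-1, a known activator of glycolytic genes whose protein is controlled mainly by its stability. Its RNA was at 59.7, 61.2 and 60.2 in untreated WT cells, 390, 422 and 411 after LPS and 484, 477 and 498 after LTA. All treated libraries lay above all untreated ones, with changes of 2.76 ± 0.05 (adjusted p = 2.1e-47; total counts 2.06) and 3.01 ± 0.05 (adjusted p = 3.6e-49; total counts 2.41).

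The genes of pyruvate dehydrogenase and its kinases showed smaller changes. Pdk1, which inhibits pyruvate dehydrogenase, fell from 32.5, 30.5 and 29.9 to 22.95, 23.6 and 21.6 after LPS and 24.8, 24.7 and 26.4 after LTA (-0.45 ± 0.07 and -0.29 ± 0.07; total counts -1.15 and -0.89). Pdk3, a kinase of the same family, was at 16.7, 14.8 and 14.4 untreated, 24.5, 29.2 and 27.8 after LPS and 14.9, 14.6 and 15.2 after LTA, with a TMM rise after LPS (0.83 ± 0.08) that was not called under total counts (0.13). Pdha1, a subunit of pyruvate dehydrogenase itself, was not called under TMM (-0.03 after LPS and -0.0036 after LTA) and fell under total counts (-0.73 and -0.60).

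The pentose phosphate genes split. Pgd, which makes NADPH from 6-phosphogluconate, was at 314, 295 and 294 in untreated WT cells, 441, 472 and 471 after LPS and 546, 571 and 570 after LTA. It changed by 0.62 ± 0.04 after LPS, which turned to -0.08 under total counts (adjusted p = 0.046), and by 0.90 ± 0.04 after LTA (total counts 0.30). Tkt, a transketolase, changed by 0.35 and 0.38 under TMM and by -0.34 and -0.22 under total counts, all called. G6pdx, the entry enzyme, was not called after LPS (0.09), a value that passed the test without WT LPS 6 h animal 3 (0.14, adjusted p = 0.043). After LTA it changed by 0.16 ± 0.06 (adjusted p = 8.8e-03), a call lost without untreated WT animal 3 (0.09, adjusted p = 0.18) and turned to -0.43 under total counts. Taldo1, a transaldolase, was not called under TMM (-0.08 and 0.02) and fell under total counts (-0.77 and -0.57).

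In KO cells Slc2a1, Slc16a3, Hk2, Pfkl, Pfkfb3, Hif1a and Slc2a6 rose most, and most of the core enzymes rose on both scalings. After LPS 23 of 31 genes rose and 4 fell under TMM (all genes 25.7% and 26.6%), and 16 and 6 under total counts (all genes 15.6% and 41.9%). After LTA the counts were 23 and 6 (all genes 25.7% and 26.5%) and 19 and 7 (all genes 16.4% and 41.1%). Pfkfb3 was at 7.18, 5.94 and 7.74 in untreated KO cells, 18.03, 17.2 and 18.8 after LPS and 20.02, 17.7 and 19.5 after LTA. Both treated groups lay above the untreated one, with changes of 1.37 ± 0.11 (adjusted p = 9.8e-16) and 1.45 ± 0.11 (adjusted p = 1.7e-16). Hk2 went from 35.9, 32.4 and 35.7 to 99.8, 93.7 and 101 after LPS and 106, 109 and 108 after LTA (1.503 ± 0.06 and 1.63 ± 0.06). Slc2a6 went from 73.7, 78.7 and 72.7 to 184, 197 and 193 after LPS and 187, 181 and 177 after LTA (1.35 ± 0.05 and 1.28 ± 0.05). Every treated library of both genes lay above every untreated one. Slc2a1 went from 44.9, 43.4 and 47.4 to 221, 237 and 218 after LPS and 231, 230 and 235 after LTA (2.32 ± 0.05 and 2.36 ± 0.05). Slc16a3 went from 29.7, 30.6 and 30.8 to 117, 122 and 119 after LPS and 126, 126 and 133 after LTA (1.97 ± 0.05 and 2.08 ± 0.05). Hif1a went from 61.7, 54.96 and 54.3 to 149, 144 and 145 after LPS and 172, 163 and 170 after LTA (1.36 ± 0.05 and 1.56 ± 0.05). Each of these 6 genes rose on both scalings with both ligands.

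Tpi1, Gapdh, Pgk1, Pgam1, Eno1 and Ldha rose in KO cells after LPS, by 0.48, 0.37, 0.53, 0.72, 0.42 and 0.46 under TMM and by 0.29, 0.18, 0.33, 0.52, 0.23 and 0.27 under total counts. Aldoa (0.26) and Pkm (0.25) rose under TMM and were not called under total counts (0.07 and 0.05). Pgam1, a phosphoglycerate mutase, was at 129, 130 and 127 untreated and at 205, 213 and 216 after LPS. Pgd rose from 310, 308 and 300 to 530, 558 and 563 after LPS (0.85 ± 0.04; total counts 0.65) and to 586, 574 and 568 after LTA (0.91 ± 0.04; total counts 0.73). Pfkl rose by 1.43 ± 0.06 after LPS and 1.52 ± 0.06 after LTA, Hk1 by 0.33 and 0.46 and Tkt by 0.44 and 0.40, each on both scalings. Hk3 (0.20 and 0.21), Gpi1, which isomerises glucose 6-phosphate (0.26 and 0.27) and Taldo1 (0.18 and 0.21) rose under TMM and were not called under total counts. Slc2a3 and Pfkfb4 fell in KO cells as well, with changes of -0.66 and -0.66 after LPS (adjusted p = 4.5e-05 and 9.0e-05) and of -0.80 and -0.65 after LTA. Slc16a1 fell from 19.4, 19.2 and 19.5 to 14.98, 16.01 and 13.9 after LPS and 16.3, 16.5 and 13.7 after LTA (-0.38 ± 0.09 and -0.32 ± 0.09). The fall of Pdk3 after LPS (-0.22) lost its call without any 1 of 4 libraries, untreated KO animals 1 and 2 and KO LPS 6 h animals 2 and 3 (adjusted p up to 0.15). After LTA the TMM rise of Pfkp (0.16; total counts -0.02) lost its call without any 1 of untreated KO animals 1 and 2 and KO LTA 6 h animals 2 and 3 (adjusted p up to 0.16), and the fall of Aldoc (-0.29) lost it without untreated KO animal 1 (-0.18, adjusted p = 0.062).

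**Figure D3:**
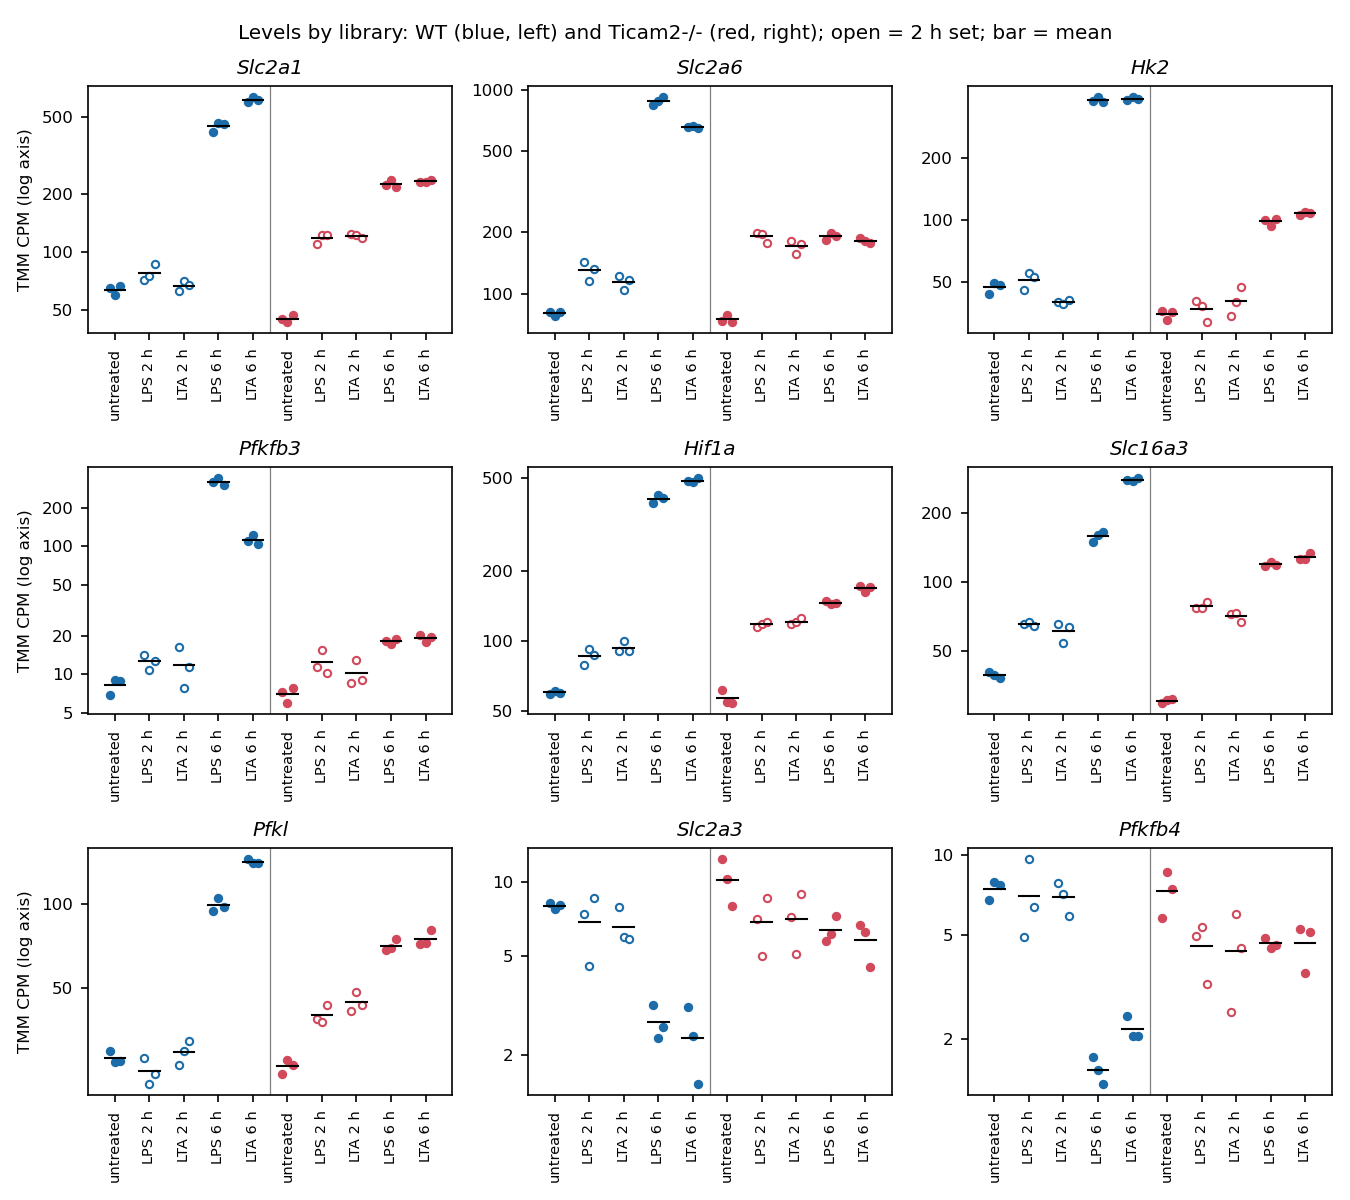
Level of 9 genes in each library, in TMM-scaled CPM on a log axis, with WT in blue on the left, KO in red on the right, open points for the 2 h library set and the group mean as a bar. Pfkfb3 reaches 303 to 340 in WT cells after 6 h of LPS and 17.2 to 18.8 in KO cells, whereas Pfkfb4 lies at 1.35 to 1.71 in those WT libraries and 4.46 to 4.86 in those KO libraries.

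Compared directly at 6 h, KO cells had less Pfkfb3, Slc2a6, Hk2, Hif1a and Slc2a1 RNA than WT cells and more Slc2a3 and Pfkfb4 RNA, with both ligands and on both scalings. After LPS 11 of 31 genes were higher and 17 lower in KO cells under TMM (all genes 32.7% and 30.6%), and 19 higher and 10 lower under total counts (all genes 61.3% and 14.5%). After LTA 8 were higher and 19 lower under TMM (all genes 30.5% and 28%), and 17 and 9 under total counts (all genes 58.9% and 12.1%). The 8 higher after LTA became 4 to 8 when single libraries were left out, with WT LTA 6 h animals 1 and 2 moving it most. After LPS the genes lower in KO cells on both scalings were Slc2a1, Slc2a6, Hk1, Hk2, Hk3, Pfkp, Pfkfb3, Slc16a1, Hif1a and Pdk3. After LTA they were Slc2a1, Slc2a6, Hk1, Hk2, Pfkl, Pfkm, Pfkfb3, Slc16a3 and Hif1a.

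Pfkfb3 had the largest difference among the members, -4.15 ± 0.07 after LPS (adjusted p = 2.2e-47; total counts -3.63) and -2.55 ± 0.07 after LTA (adjusted p = 2.7e-35; total counts -2.11). Slc2a6 differed by -2.20 ± 0.05 after LPS and -1.85 ± 0.05 after LTA. Hk2 differed by -1.96 ± 0.05 and -1.85 ± 0.05. For Pfkfb3, Slc2a6, Hk2, Hif1a and Slc2a1 every KO library lay below every WT library with both ligands. Hif1a differed by -1.48 ± 0.04 and -1.53 ± 0.04. Slc2a1 differed by -0.997 ± 0.04 and -1.41 ± 0.04. The lactate exporter Slc16a3 was lower in KO cells after LTA on both scalings (-1.12 ± 0.04; total counts -0.68), whereas after LPS its difference was -0.41 under TMM and 0.12 under total counts, both called. Slc16a1 after LPS stood at 14.98, 16.01 and 13.9 in KO cells against 38.6, 45.0 and 37.5 in WT cells (-1.43 ± 0.08; total counts -0.91).

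The members higher in KO cells on both scalings included both of the genes that fell most in WT cells. Slc2a3 was at 5.76, 6.13 and 7.28 in KO cells after LPS against 3.17, 2.34 and 2.59 in WT cells (1.25 ± 0.20, adjusted p = 4.7e-07), and differed by 1.31 ± 0.22 after LTA. Pfkfb4 was at 4.86, 4.46 and 4.58 against 1.71, 1.52 and 1.35 after LPS (1.59 ± 0.23, adjusted p = 2.5e-08), and differed by 1.09 ± 0.21 after LTA. In both genes the KO libraries given LPS lay above the WT ones. G6pdx stood at 131, 132 and 123 in KO cells after LPS against 91.8, 97.5 and 89.5 in WT cells (0.47 ± 0.06). Pdk1 (0.50), Taldo1 (0.31), Pgd (0.25), Pdha1 (0.28) and Gpi1 (0.36) were also higher after LPS on both scalings. Tpi1, Pgk1, Ldha and Tkt were lower in KO cells after LPS under TMM (-0.13, -0.24, -0.23 and -0.14) and higher under total counts (0.39, 0.29, 0.30 and 0.38). The difference of Pfkl after LPS was -0.48 under TMM and 0.04 under total counts. Gapdh, Eno1 and Aldoa, not called under TMM (-0.001, 0.01 and 0.0043), were higher under total counts (0.52, 0.54 and 0.53). After LTA Aldoa, Gapdh, Pgam1, Eno1 and Tkt were lower in KO cells under TMM (-0.21, -0.21, -0.19, -0.21 and -0.20) and higher under total counts (0.22, 0.23, 0.25, 0.23 and 0.23).

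Some of the smaller differences at 6 h lost or gained a call when 1 library was left out. Each such fit also renewed the filter and the TMM factors, and what moved these calls was not tested. Pgam1 after LPS, for example, was 0.05, 0.09 and 0.09 without WT LPS 6 h animal 1, 2 and 3, each below its full value. After LPS the calls of Pgam1 (0.13) and Pkm (0.10) were lost without any 1 WT LPS 6 h library (adjusted p up to 0.35 and 0.64), and that of Aldoc (0.21) without any 1 of the 6 libraries but KO LPS 6 h animal 2 (adjusted p up to 0.27). Gapdh passed the test as lower in KO cells without WT LPS 6 h animal 1 (-0.11, adjusted p = 0.033). After LTA the calls of Gpi1 (0.12) and Pdha1 (0.20) were lost without any 1 WT LTA 6 h library, and that of Gpi1 also without KO LTA 6 h animal 2 (adjusted p up to 0.50 and 0.19). The call of Pdk1 after LTA (0.24) was lost without WT LTA 6 h animal 1 or 2 (adjusted p up to 0.12) and that of Pkm (0.17) without animal 2 (adjusted p = 0.10). Pdk3, not called after LTA (-0.22), passed without WT LTA 6 h animal 1 or 2 or KO LTA 6 h animal 2 (adjusted p = 0.040, 0.027 and 9.6e-03).

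**Figure D4:**
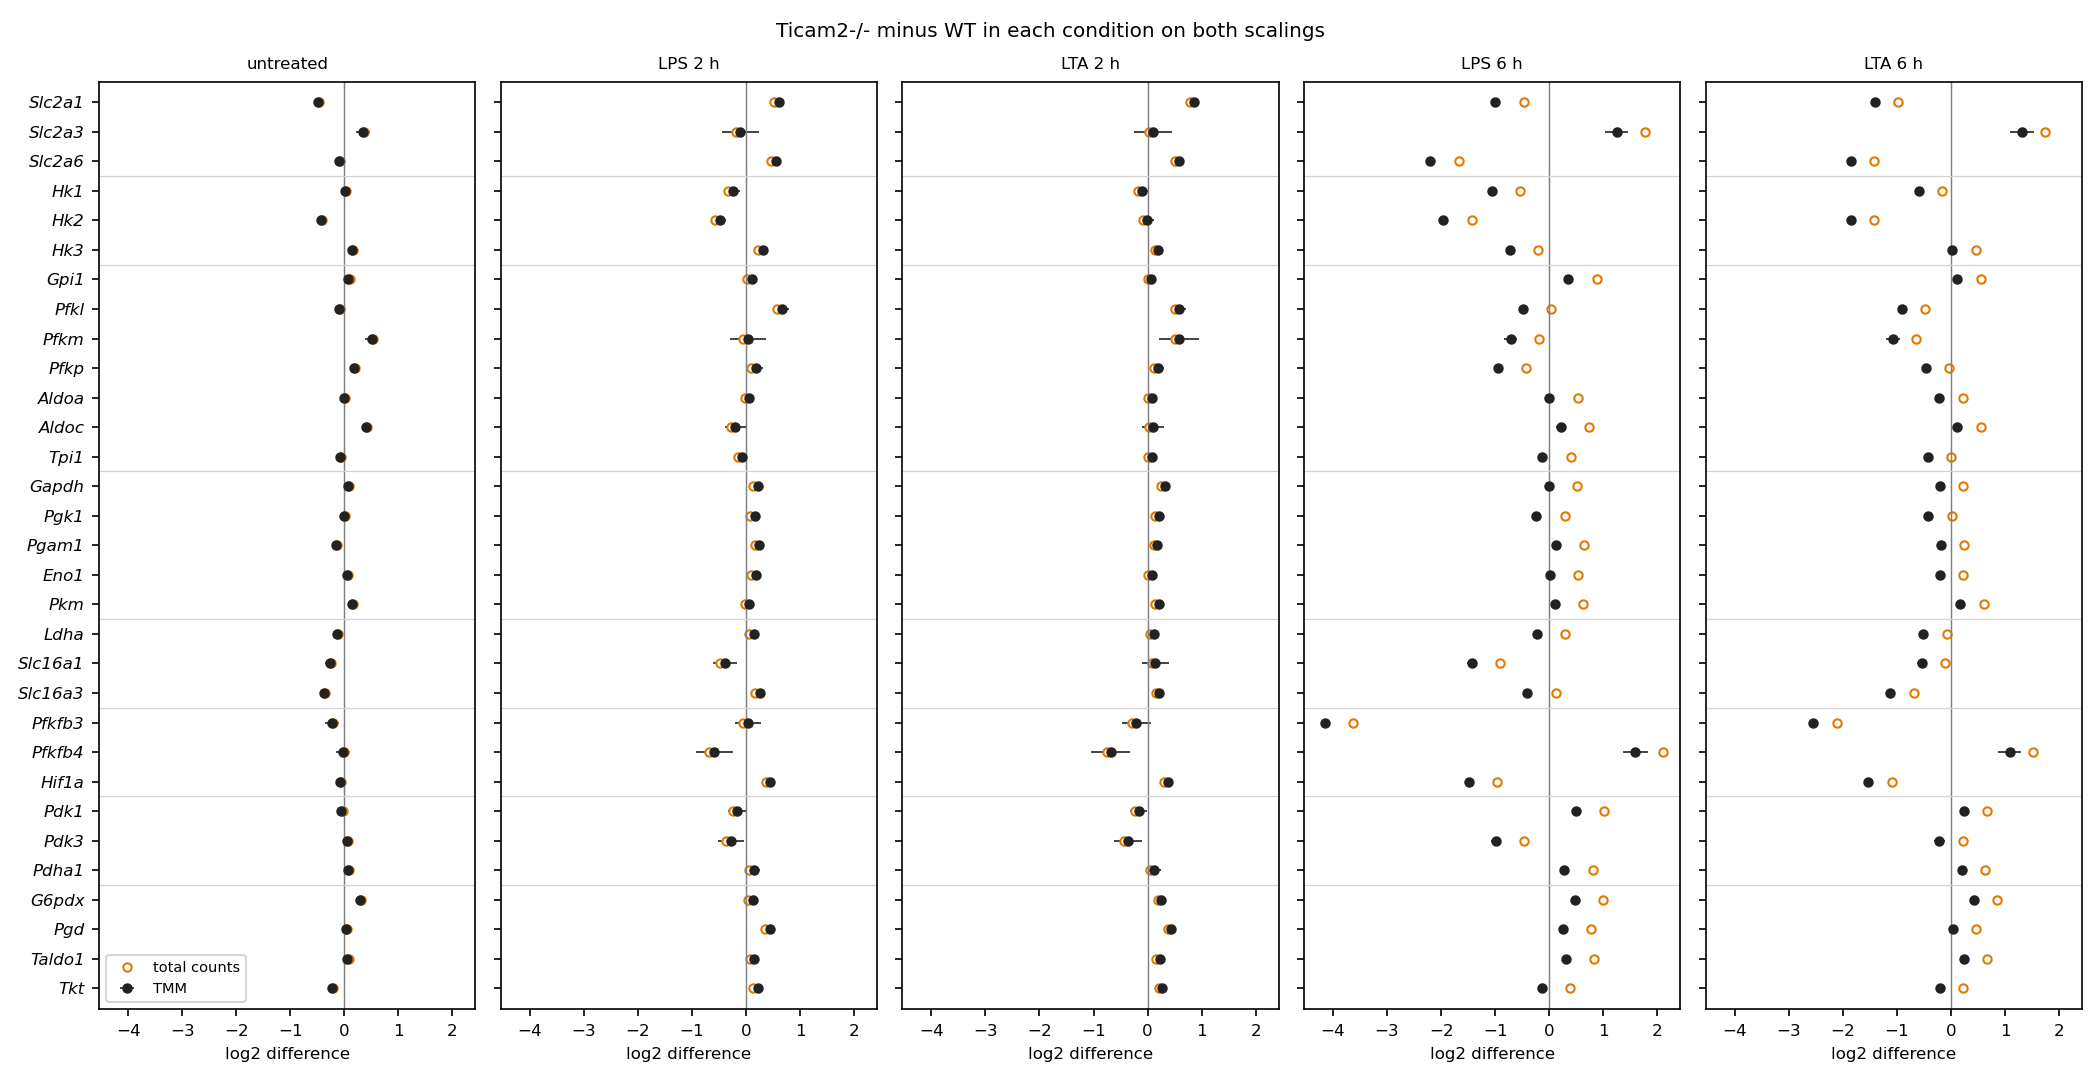
KO minus WT log2 difference of the 31 tested genes in untreated cells and after 2 h or 6 h of LPS or LTA; black points are TMM values with their SE and orange open points total-count values. Under TMM Pfkfb3 lies at -4.15 after 6 h of LPS and at 0.03 after 2 h of LPS. After 6 h of LPS Pfkl, Tpi1, Gapdh, Pgk1, Ldha, Tkt and Slc16a3 move from below 0 under TMM to above 0 under total counts.

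Some members already differed in untreated cells. There 6 of 31 genes were higher and 7 lower in KO cells under TMM (all genes 5.97% and 7.47%), with the same numbers under total counts (all genes 6.96% and 6.3%). Slc2a1 was at 44.9, 43.4 and 47.4 in KO and 64.8, 59.8 and 67.1 in WT cells (-0.50 ± 0.06, adjusted p = 3.9e-10). Hk2 was at 35.9, 32.4 and 35.7 in KO and 43.5, 49.3 and 48.1 in WT cells (-0.44 ± 0.06), and Slc16a3 differed by -0.37 ± 0.06. In these 3 genes all KO libraries lay below all WT ones. Pfkm (0.50), Aldoc (0.41), G6pdx (0.28) and Pkm (0.15) were higher in KO cells, and Tkt (-0.23), Pgam1 (-0.16) and Ldha (-0.14) lower, on both scalings. The calls of Hk3 (0.14) and Pfkp (0.18) were lost without any 1 of untreated WT animals 1 and 3 and untreated KO animals 2 and 3 (adjusted p up to 0.23 and 0.39). That of Slc16a1 (-0.27) was lost without untreated WT animal 1 or untreated KO animal 1 or 2 (adjusted p up to 0.19). Slc2a3 (0.34), not called, passed without untreated KO animal 3 (0.50, adjusted p = 6.9e-03). Pfkfb3 (-0.24 ± 0.13), Hif1a (-0.08 ± 0.05) and Slc2a6 (-0.09 ± 0.05) were not called.

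The test of the genotype difference in the response sets each genotype against its own untreated cells. For LPS it gave 9 genes with a more positive and 13 with a more negative response in KO cells under TMM (all genes 27% and 23.5%), and 19 and 10 under total counts (all genes 55.9% and 10.9%). For LTA it gave 4 and 17 under TMM (all genes 24.8% and 20.1%), and 15 and 10 under total counts (all genes 52.7% and 8.35%). The 4 for LTA became 2 without WT LTA 6 h animal 1 or 2. The LPS response of Pfkfb3 differed by -3.91 ± 0.16 (adjusted p = 2.4e-28), that of Slc2a6 by -2.11 ± 0.07, that of Hk2 by -1.52 ± 0.08 and that of Hif1a by -1.40 ± 0.07, each written as KO minus WT and called on both scalings. The LPS response of Slc2a1 differed by -0.50 ± 0.07 under TMM and by 0.0031 under total counts (adjusted p = 0.98), and that of Slc16a3 by -0.03 ± 0.07 under TMM and 0.47 under total counts. For LTA the responses of Slc2a1 (-0.91 ± 0.07) and Slc16a3 (-0.75 ± 0.07) were lower in KO cells on both scalings (total counts -0.49 and -0.33).

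LPS and LTA, which were given at different doses, gave different levels of many of these genes in WT cells at 6 h. In WT cells 7 of 31 genes were higher with LPS and 13 higher with LTA under TMM (all genes 17.9% and 14%), and 7 and 19 under total counts (all genes 14.1% and 22.5%). Higher with LPS on both scalings were Pfkfb3 (1.52 ± 0.06, adjusted p = 5.7e-30), Pdk3 (0.87), Slc16a1 (0.84), Hk3 (0.73), Pfkp (0.45), Slc2a6 (0.42) and Hk1 (0.34). Higher with LTA on both, written as LPS minus LTA, were Slc16a3 (-0.82 ± 0.04, adjusted p = 8.6e-24), Pfkl (-0.51), Slc2a1 (-0.45), Tpi1 (-0.35), Pgam1 (-0.32), Ldha (-0.29), Pgd (-0.29), Aldoa (-0.26), Hif1a (-0.25), Gpi1 (-0.24), Gapdh (-0.19), Pgk1 (-0.18) and Eno1 (-0.18). Glucose carriers, phosphofructokinase subunits and lactate exporters each had a member on either side, and Hk2 was not called under TMM (-0.02 ± 0.04). Taldo1 (-0.10), not called under TMM, passed without WT LTA 6 h animal 1 or WT LPS 6 h animal 3 (adjusted p = 0.046 and 8.2e-03).

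In KO cells at 6 h edgeR called 0 of 31 genes higher with LPS and 1 higher with LTA (all genes 1.34% and 1.32%), namely Hif1a (-0.20, adjusted p = 2.8e-03). At an unadjusted p under 0.05 edgeR gave 0 higher with LPS. Under total counts 0 and 2 were called (all genes 1.19% and 1.63%), and DESeq2 gave 0 higher with LPS and 2 higher with LTA. Over the 31 genes the KO differences ran from -0.20 to 0.24, against -0.82 to 1.52 in WT cells. The 95% interval of the KO difference was -0.27 to 0.10 for Pfkfb3, -0.19 to -0.02 for Slc16a3, -0.11 to 0.08 for Hk3, -0.24 to 0.13 for Slc16a1 and -0.13 to 0.05 for Slc2a1. Besides that of Slc16a3, the intervals of Hk1 (-0.23 to -0.03), Hk2 (-0.23 to -0.03), Pkm (-0.18 to -0.04) and Hif1a (-0.29 to -0.12) lay below 0. Of these only Hif1a was called under TMM. On the other side that of Aldoc was 0.00 to 0.31. The KO minus WT difference after LPS, less that after LTA, was called above 0 for 12 genes and below 0 for 7 under TMM (all genes 9.14% and 13.5%), and for 14 and 7 under total counts (all genes 15.2% and 11%). It was -1.60 ± 0.11 for Pfkfb3 (adjusted p = 9.3e-18), -0.89 for Slc16a1, -0.78 for Pdk3 and -0.74 for Hk3, and 0.71 for Slc16a3, 0.43 for Pfkl and 0.41 for Slc2a1, each called on both scalings.

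**Figure D5:**
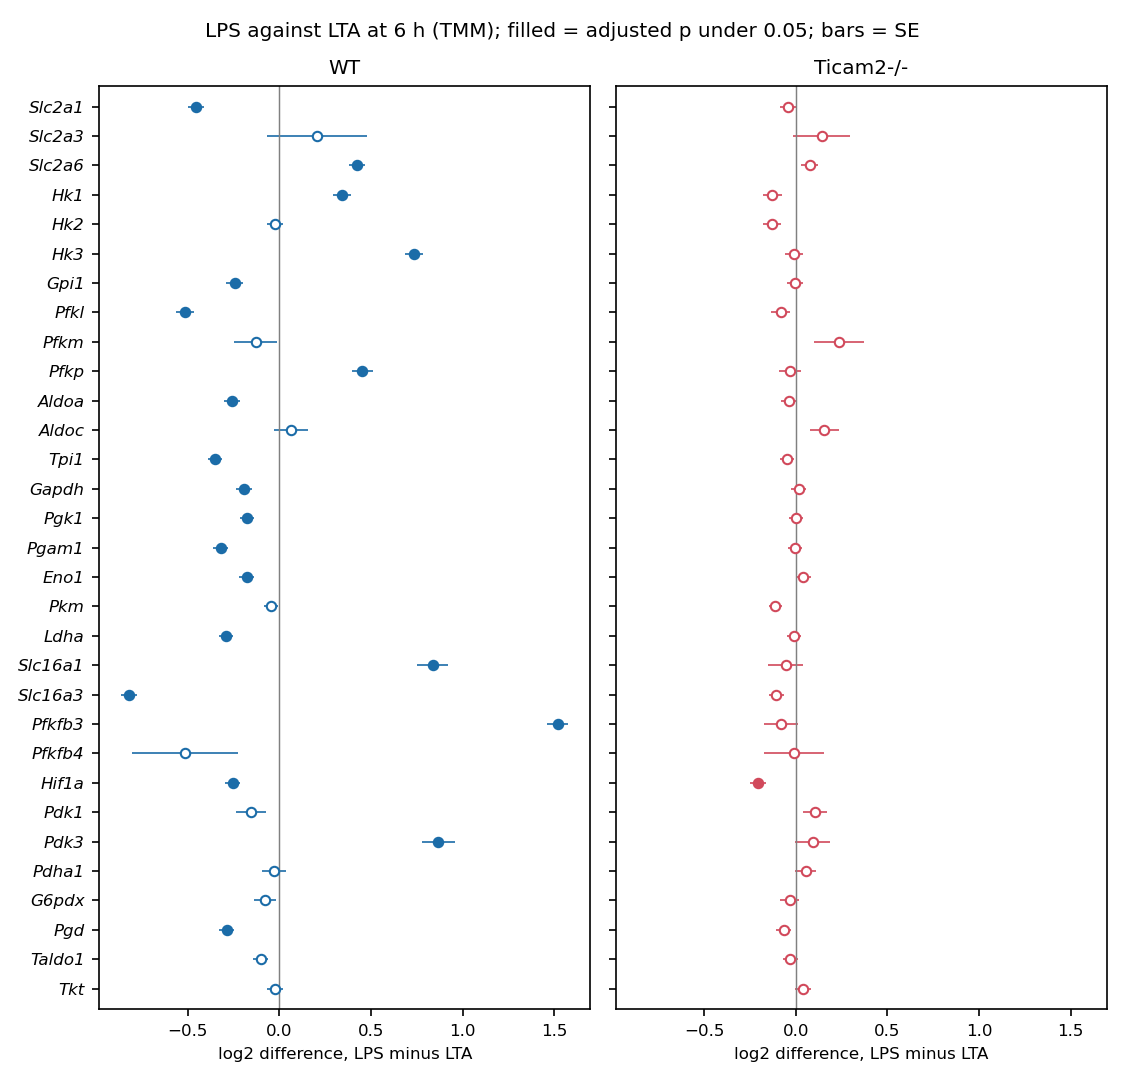
LPS minus LTA log2 difference at 6 h under TMM for the 31 tested genes, in WT and KO cells, with SE as bars and filled points for an adjusted p under 0.05. The WT points run from -0.82 (Slc16a3) to 1.52 (Pfkfb3), and the KO points from -0.20 (Hif1a, the filled one) to 0.24 (Pfkm).

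At 2 h, where library set and treatment cannot be told apart in comparisons with untreated cells, the members went both ways. In WT cells 10 of 31 genes were called higher and 11 lower after LPS under TMM (all genes 19.5% and 25.5%), and 10 and 11 under total counts (all genes 18.9% and 26.1%). After LTA it was 8 and 10 (all genes 19% and 23.9%), and 8 and 10 under total counts (all genes 19% and 23.9%). In KO cells it was 14 and 11 after LPS (all genes 26.8% and 30.4%) and 15 and 10 after LTA (all genes 26.3% and 29.7%), and under total counts 10 and 14 (all genes 22.4% and 36%) and 13 and 13 (all genes 23.1% and 33.7%). Gapdh was at 140, 124 and 132 in WT cells 2 h after LPS, below all untreated WT libraries (-0.94 ± 0.06), and Pgam1 at 76.8, 73.97 and 72.7 (-0.95 ± 0.06). Both were lower in all 4 comparisons of 2 h with untreated cells on both scalings, as were Hk1, Eno1, Slc16a1, Pdk1 and Taldo1. Slc16a3, Hif1a and Slc2a6 were higher in all 4, by 0.73, 0.52 and 0.70 in WT cells and 1.37, 1.05 and 1.35 in KO cells after LPS. Gpi1, Pkm and G6pdx were also higher in all 4 on both scalings. Pfkfb3 was at 14.1, 10.8 and 12.7 in WT and 11.3, 15.4 and 10.2 in KO cells after LPS, and Hk2 differed from untreated cells by 0.13 ± 0.09 and 0.08 ± 0.10. Slc2a1 in WT cells after LPS (0.30) lost its call without WT LPS 2 h animal 3 (0.19, adjusted p = 0.12).

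KO and WT cells within the 2 h set, which do not cross library sets, differed in another way than at 6 h. After LPS 13 of 31 genes were higher and 1 lower in KO cells under TMM (all genes 9.11% and 7.24%), and 5 and 2 under total counts (all genes 6.04% and 9.82%). After LTA 10 were higher and 0 lower under TMM (all genes 7.83% and 5.21%), and 9 and 0 under total counts (all genes 5.53% and 6.93%). Of the lower ones edgeR gave 0 at an unadjusted p under 0.05 and DESeq2 called 0. The 13 after LPS became 7 to 10 when any 1 library was left out, with all 3 WT LPS 2 h libraries and KO LPS 2 h animal 3 moving it most, 6 in a fit of the 2 h libraries alone and 8 with DESeq2. Slc2a1 was at 110, 123 and 122 in KO and 71.3, 75.1 and 86.2 in WT cells after LPS (0.60 ± 0.08, adjusted p = 5.7e-08), and at 123, 123 and 118 against 63.1, 70.4 and 67.7 after LTA (0.86 ± 0.09). Its KO libraries lay above its WT libraries with both ligands, the reverse of the order in untreated cells and at 6 h. Slc2a6 was higher in KO cells by 0.55 after LPS and 0.58 after LTA, Hif1a by 0.45 and 0.37, Pfkl by 0.67 and 0.58 and Pgd by 0.44 and 0.44, each called on both scalings. Hk2 was lower in KO cells after LPS (-0.49 ± 0.12, adjusted p = 1.4e-03) and not called after LTA (-0.01 ± 0.12). Pfkfb3 was not called at 2 h (0.03 ± 0.24 and -0.21 ± 0.27). The calls of Hk3 (0.31) and Slc16a3 (0.26) after LPS were lost when single libraries were left out, for Slc16a3 any of the 6 and for Hk3 WT animal 1 or 2 or KO animal 3 (adjusted p up to 0.12 and 0.19).

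Few genes of the whole table were called between LPS and LTA at 2 h, so the low counts of members are not particular to them. In WT cells edgeR called 0 of 31 genes higher with LPS and 0 higher with LTA (all genes 1.1% and 0.0992%). At an unadjusted p under 0.05 these were 3 and 0, and DESeq2 called 0 and 0. In KO cells edgeR called 0 higher with LPS, with 1 at an unadjusted p under 0.05 and 0 called by DESeq2, and Pkm higher with LTA (-0.16, adjusted p = 0.019; all genes 1.14% and 0.258%). The call of Pkm was lost without any 1 of KO LTA 2 h animals 1 and 2 and KO LPS 2 h animals 1 and 3 (adjusted p up to 0.19).

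The change of the genotype difference from 2 h to 6 h was tested as a comparison added after the data were seen, and it also sets library sets against each other. Under TMM 6 genes moved up and 17 down with LPS (all genes 22% and 23.5%), and 2 and 20 with LTA (all genes 20.1% and 20.5%). Under total counts it was 18 and 8 with LPS (all genes 45% and 11.1%), and 13 and 9 with LTA (all genes 39.9% and 9.4%). The 2 with LTA were Slc2a3 and Pfkfb4, and their number ran from 1 to 3 when single libraries were left out, among them WT LTA 6 h animal 3, WT LTA 2 h animal 1 and KO LTA 2 h animal 2. Slc2a1 moved by -1.60 ± 0.09 with LPS and -2.26 ± 0.10 with LTA. Slc2a6 moved by -2.75 ± 0.08 and -2.43 ± 0.09, and Hif1a by -1.93 ± 0.09 and -1.90 ± 0.09. All 3 were called on both scalings.

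The genes around the pathway were read from lists of related genes. Of 19 tested other known HIF-1 targets, 15 rose and 2 fell in WT cells after LPS under TMM (all genes 36.6% and 36.1%), and 7 and 7 under total counts (all genes 16.2% and 63.7%). After LTA it was 17 and 2 (all genes 35.4% and 35.9%), and 13 and 2 under total counts (all genes 15.7% and 62.3%). They included Bnip3, a mitophagy receptor (1.95 with LPS and 2.44 with LTA), and Il1b (7.75 and 8.15) and Nos2 (8.63 and 7.17), which are also known as inflammatory genes. In KO minus WT after LPS 4 were higher and 12 lower (all genes 32.7% and 30.6%), and 10 and 5 under total counts (all genes 61.3% and 14.5%), with Nos2 at -5.32, Il1b at -3.10 and Ddit4, an inhibitor of mTORC1, at -2.996. Of 10 tested HIF pathway regulators 7 rose and 2 fell in WT cells after LPS (total counts 2 and 6), against the same shares over all genes as the HIF-1 targets, with Egln2, a prolyl hydroxylase, at 1.04.

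The neighbouring enzymes went both ways. Their counts in WT cells after LPS are given as rose and fell, beside shares of 36.6% and 36.1% of all genes under TMM and 16.2% and 63.7% under total counts, and no list was tested against these shares. Of 14 other glycolysis and gluconeogenesis enzymes 3 rose and 5 fell in WT cells after LPS under TMM (total counts 0 and 11), with Pck2, a mitochondrial PEP carboxykinase, at -2.42 and Eno1b, a near-identical copy of Eno1 whose reads it may share, at 0.44. Of 13 other sugar, lactate and pyruvate transporters 3 rose and 9 fell (total counts 1 and 11), with Slc16a7, which encodes MCT2, at -2.05. Of 8 other pentose phosphate genes 1 rose and 6 fell (total counts 0 and 7), with Prps2, a ribose-phosphate pyrophosphokinase, at -1.49. The same counts were 4 and 9 of 16 glycogen genes (total counts 0 and 13) and 3 and 4 of 8 other pyruvate dehydrogenase genes (total counts 1 and 7). They were 4 and 3 of 8 glucose-sensing and MYC regulators (total counts 3 and 5) and 3 and 5 of 10 genes of the serine and hexosamine branches (total counts 0 and 8). Txnip, an inhibitor of glucose uptake, changed by -1.30 after LPS and -2.08 after LTA, and its relative Arrdc4 by 3.19 and 3.09.

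Markers of other cells moved with some groups. Summed neutrophil markers were at 9.59 to 12.9 CPM of total in untreated WT cells, 20.4 to 21.03 after 6 h of LPS, 22.0 to 25.5 after 6 h of LTA and 11.99 to 14.3 in KO cells at 6 h, with Ly6g and Elane at 0 in the WT groups. Red cell and megakaryocyte markers rose in WT cells after LPS in 7 of 7 tested genes under TMM and in 1 under total counts, where the shares of all genes that rose were 36.6% and 16.2%. Hepatocyte markers took 19.8 to 28.7 CPM in the untreated and 6 h libraries and 43.8 to 90.4 CPM at 2 h. These sums rest on different genes, as Alb and Fgb were at 0 in every untreated and 6 h group and Ttr in every 2 h group. B cell markers took at most 4.13 CPM, dendritic cell markers 1.69, T and NK cell markers 0.710 and mast cell and basophil markers 0.0905. The part of these cells in the members' changes was not tested.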

How the data were processed

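RNA was measured in 30 libraries of 10 groups of 3. The authors deposited expected counts per gene, not normalised, as 1 table. Per the submitters' processing notes, which give no roles or order, the tools were fastp 0.24.0, STAR 2.7.11, SAMtools 1.22.1 and featureCounts of Subread 2.1.1, with builds GRCm38 and mm10. The sources used here do not state RNA selection or the strand setting. Of the values above 0, 25.2% were not whole, and all were rounded. Of 32361 IDs 26304 were named from GENCODE M21, and 0 columns lacked a sample.

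The members and lists were chosen with earlier results of these data known. All 30 libraries entered 1 model with a term per group in edgeR 4.0.16 (R 4.3.3, limma 3.58.1), with genes kept by filterByExpr (minimum count 10, minimum total 15), 20 residual degrees of freedom, TMM or total-count scaling, the quasi-likelihood test and Benjamini-Hochberg adjustment over all tested genes within each of 22 comparisons, called under 0.05. The 95% intervals are the log2 difference ± 1.96 SE. Total counts, RLE factors, DESeq2 1.42.0, no filter, each library set alone, leaving out each library and a replicate block were tried. The fit was tested on simulated data in which as many genes were raised as lowered, so that test does not bear on the choice of scaling. All 32 members are named, and from each other list up to 3 tested genes with the smallest p in WT LPS 6 h, WT LTA 6 h and KO against WT after LPS 6 h, of which some are printed. The lists were other HIF-1 targets, HIF regulators, other transporters, pentose phosphate, glycogen, glycolysis, pyruvate dehydrogenase, glucose-sensing and MYC, serine and hexosamine genes, and markers of 9 cell types. Promoters are from RefSeq, GRCm38.p6. Depth was 1334784 to 13521660 counts per library.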

Additional observations from a re-analysis of the deposited data

Results flagged for a closer look

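The values below are log2 differences between responses, from edgeR's quasi-likelihood test, each with an adjusted p under 0.05 and a size of at least 1 both under TMM, which is printed, and under total counts. The 6 h LPS response, KO minus WT, differed for Slc2a6 (-2.11), Hk2 (-1.52), Pfkfb3 (-3.91) and Pfkfb4 (1.62). The 6 h LTA response differed for Slc2a6 (-1.76), Pfkm (-1.58), Pfkfb3 (-2.31), Pfkfb4 (1.11) and Hif1a (-1.45). Pfkfb3 makes the activator of phosphofructokinase, Slc2a6 encodes GLUT6 and Pfkfb4 is of the same family as Pfkfb3. Between ligands, the genotype difference after LPS less that after LTA stood out for Pfkfb3 (-1.60). Between times, the genotype difference at 6 h less that at 2 h with LPS stood out for Slc2a3 (1.35), Slc2a6 (-2.75), Pfkfb3 (-4.18), Pfkfb4 (2.18) and Hif1a (-1.93). With LTA it stood out for Slc2a1 (-2.26), Slc2a3 (1.22), Slc2a6 (-2.43), Hk2 (-1.84), Pfkm (-1.66), Pfkfb3 (-2.34), Pfkfb4 (1.77) and Hif1a (-1.90). The comparisons between times were added after the data were seen, and they also compare the 2 h library set with the 6 h one. Slc2a3 between times lost its call with LPS without WT LPS 2 h animal 3 (1.09, adjusted p = 0.074), and with LTA without WT LTA 6 h animal 3, WT LTA 2 h animal 1 or KO LTA 2 h animal 2 (0.96, 1.08 and 1.03, adjusted p up to 0.074). The counts of Pfkm are uncertain because it overlaps Senp1 on the opposite strand.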

How the results depend on the processing

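The scaling was the choice that changed most. There were 395 member results, which are all 31 tested members in 8 comparisons and some of them in the others. Under total counts 305 kept their side of the threshold and, where called, their direction, while 22 gained and 26 lost a call. The other 42 changed sign with a call on at least 1 of the scalings, and they are given as total-count log2 values. In WT LPS 6 h against untreated these were Aldoa -0.45, Aldoc -0.64, Tpi1 -0.16, Gapdh -0.26, Pgam1 -0.27, Eno1 -0.23, Pkm -0.41, Ldha -0.14, G6pdx -0.61, Pgd -0.082 and Tkt -0.34. In WT LTA 6 h against untreated these were Hk3 -0.27, Gpi1 -0.37, Aldoa -0.093, Pkm -0.26, G6pdx -0.43, Taldo1 -0.57 and Tkt -0.22. In KO LPS 6 h against untreated these were Pdha1 -0.012 and Taldo1 -0.018. In KO LTA 6 h against untreated it was Pfkp -0.023. In KO minus WT after LPS 6 h these were Pfkl 0.041, Tpi1 0.39, Gapdh 0.52, Pgk1 0.29, Ldha 0.30, Slc16a3 0.12 and Tkt 0.38. In KO minus WT after LTA 6 h these were Aldoa 0.22, Tpi1 0.010, Gapdh 0.23, Pgk1 0.022, Pgam1 0.25, Eno1 0.23, Pdk3 0.22 and Tkt 0.23. Of the 15 members examined in the genotype difference in the LPS response these were Slc2a1 0.0031, Pfkl 0.12 and Slc16a3 0.47. Of the same 15 in the LTA response it was Hk3 0.30. Of the same 15 in the time difference with LTA these were Hk1 0.016 and Hk3 0.33. Outside the 395, members called lower under TMM and higher under total counts were Pgk1 (0.28) in the genotype difference in the LPS response, Aldoa (0.21), Gapdh (0.15) and Eno1 (0.16) in the LTA response, Gapdh (0.39), Pgk1 (0.21), Ldha (0.23), Pgd (0.43) and Tkt (0.26) in the time difference with LPS, and Aldoa (0.21) and Eno1 (0.22) in that with LTA. These moves follow from the scaling, which shifts all genes of a comparison together. The member counts moved under total counts to 10 higher and 17 lower in WT after LPS 6 h, 15 and 14 after LTA 6 h, 19 and 10 for KO minus WT after LPS 6 h, 17 and 9 after LTA 6 h, and 5 and 2 after LPS 2 h. They moved to 2 higher with LTA in KO cells at 6 h, 19 more positive for the genotype difference in the LPS response, 15 and 10 in the LTA response, and 18 and 8 and 13 and 9 for the time differences with LPS and LTA. RLE factors and DESeq2 each gave 5 higher for KO minus WT after LTA 6 h and 2 more positive in the LTA response, and DESeq2 gave 8 higher for KO minus WT after LPS 2 h and 2 higher with LTA in KO cells at 6 h. A fit of the own library set gave 6 for KO minus WT after LPS 2 h, and no filter gave 0 for the KO ligand comparison at 2 h; the cause was not tested. Leaving out 1 library gave 4 to 8 higher for KO minus WT after LTA 6 h, 7 to 10 after LPS 2 h, 0 to 1 for the KO ligand comparison at 2 h, 2 to 5 more positive in the LTA response and 1 to 3 up in the time difference with LTA. For single members DESeq2 kept 381 of 395 results, RLE factors 381 and no filter 383, and none of these changed a sign of a called value. The replicate block, which uses numbers that the labels do not tie across treatments, kept all 34 member counts within 1.5 times and changed 1 of 272 member results; it moved the calls over all genes from 10986 to 10996 in WT after LPS 6 h, and for KO against WT, which are different animals, no paired fit was made. The 2 h libraries, at 1334784 to 2658329 counts, limit what could be detected there.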
